A study of Mus musculus with 8 samples.

Results

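DEAD-box and DEAH-box RNA helicases are ATPases that unwind short RNA duplexes or strip proteins from RNA, and in the mouse their genes carry the stems Ddx and Dhx. Their transcripts were compared between MYC-positive and MYC-negative germinal centre B cells on expression arrays. The helicase genes were those whose platform symbol starts with Ddx or Dhx followed by a digit, on probe sets assigned exactly 1 symbol, with Ddx58 and Dhx58 left out. This gave 49 genes on 107 of 45056 probe sets, out of 18193 genes that had a probe set with 1 symbol. Each gene was represented by its probe set of highest mean log2 signal. Of the 49 genes, 44 passed the filter on low signal and were tested together with all other genes, 11754 in total. Of the 49 genes, 16 were grouped as nucleolar from textbook knowledge, and all 16 were tested. The other 33, of which 28 were tested, were grouped by 1 other role each. That grouping does not exclude a further part in the nucleolus.

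Both groups came from GFPMYC knock-in mice on the C57BL6 label, 8 weeks of age, whose spleens were taken on day 12 after immunization with sheep red blood cells. From magnetically enriched B cells, PNAhi/CD95hi germinal centre cells were divided by their GFP, read as MYC, into 4 MYC-positive and 4 MYC-negative samples. The MYC-negative cells carry the same knock-in allele and saw the same antigen, so the labelled difference between the groups is the GFP gate. The sample descriptions tie each MYC-positive sample to 1 MYC-negative sample, giving 4 pairs, here called pairs 1 to 4. The protocol describes a sort for each mouse and the design text describes pools of splenic cells, so the sources do not settle whether a pair is 1 mouse or 1 pool. In pair 2 both arrays read high for Xist, at 5501 in the MYC-positive and 6927 in the MYC-negative sample, together with the Y-linked Eif2s3y, at 3096 and 3799, which a single mouse of ordinary karyotype would not give. Between 5 and 20 ng of total RNA was amplified for each array.

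Ribosome production starts in the nucleolus, where a long precursor RNA is transcribed, folded, trimmed and packed with proteins into the small and the large subunit. RNA helicases drive many of these steps, because snoRNAs must be released from the precursor and misfolded stretches opened. Other members of the family act in the spliceosome, in mRNA export, in translation and in mRNA decay. MYC is known as an activator of genes of ribosome production, and in the germinal centre it is expressed by a minority of B cells, among them cells that have been selected to divide further.

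Signals below are linear array intensities and differences are log2 values of the MYC-positive sample less those of its MYC-negative partner, fitted with the pair as a block. An average signal is the geometric mean over the 4 arrays of a group. A gene was called at an adjusted p under 0.05 over all 11754 genes, at which 11.2% of them were called higher and 11.5% lower. Trimmed array means were alike, at 495 to 497, which a scaling of the arrays to a common target gives by itself. Between 34.7% and 42.6% of probe sets read over 100. Myc itself, the gene behind the gate, averaged 663 in MYC-positive samples and 92.9 in MYC-negative samples, a difference of 2.83. The B cell label held on every array, with the summed signal of 7 B cell markers at 29807 to 37422 in MYC-positive samples and 39865 to 46131 in MYC-negative samples and 4 of the 7 called lower in MYC-positive cells. The 8 germinal centre markers summed to 29138 to 37762 in MYC-positive samples and 34441 to 48495 in MYC-negative samples, with 2 called lower. Of 14 tested macrophage and myeloid markers, of 19 on the array, 9 were higher in MYC-positive cells and 1 was lower. The summed signal of the 19 was 1696 to 11686 in MYC-positive samples, against 709 to 1583 in MYC-negative samples, and Itgam was under the filter on every array. Plasma cell markers summed to 24787 to 31433 in MYC-positive samples and 16257 to 28278 in MYC-negative samples, with 3 of 6 tested called higher. Of 8 T cell markers 2 were tested, and Cd4 was under the filter on every array. Thy1 was called higher, at 73.6 in MYC-positive cells and 14.5 in MYC-negative cells (difference 2.34, adjusted p = 0.019). The other differed by -0.52 and was not called. T cell markers summed to 86.5 to 223 in MYC-positive samples and 102 to 169 in MYC-negative samples. Those of granulocytes summed to 55.7 to 603, highest in pair 4, and 47.7 to 131, with 1 of 7 tested and not called. The B cell, germinal centre, myeloid and plasma cell sums move with the comparison below. Fewer cells of a type and less RNA per cell cannot be told apart in bulk samples.

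Of the 44 tested helicases, 11 were higher in MYC-positive cells and 2 were lower (25% and 4.55%, where 11.2% and 11.5% of all genes were). Of the 16 nucleolar helicases, 8 were higher (50%) and 0 were lower. The number higher was 4 without pair 1 (25%, where 3.43% of all genes were), 3 without pair 2 (18.8%, against 3.87%) and 4 without the intensity trend (25%, against 6.26%). At an unadjusted limma p under 0.05, 9 were higher and 1 was lower, where 17.0% and 19.2% of all genes were. MYC-positive was the higher array in all 4 pairs for 9 of the 16 and the lower for 1, where 19.3% and 23.0% of all genes were. The called genes were Ddx56, Ddx18, Dhx33, Ddx51, Ddx31, Ddx49, Ddx27 and Ddx10, with folds of MYC-positive over MYC-negative from 1.54 to 3.03. The median difference over the 16 was 0.60, against -0.06 over all genes tested. In 7 of the 16, every MYC-positive array lay above every MYC-negative array, and Ddx24 was the 1 gene with every MYC-positive array below. Over all genes these shares were 11.1% and 10.9%.

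**Figure D1:**
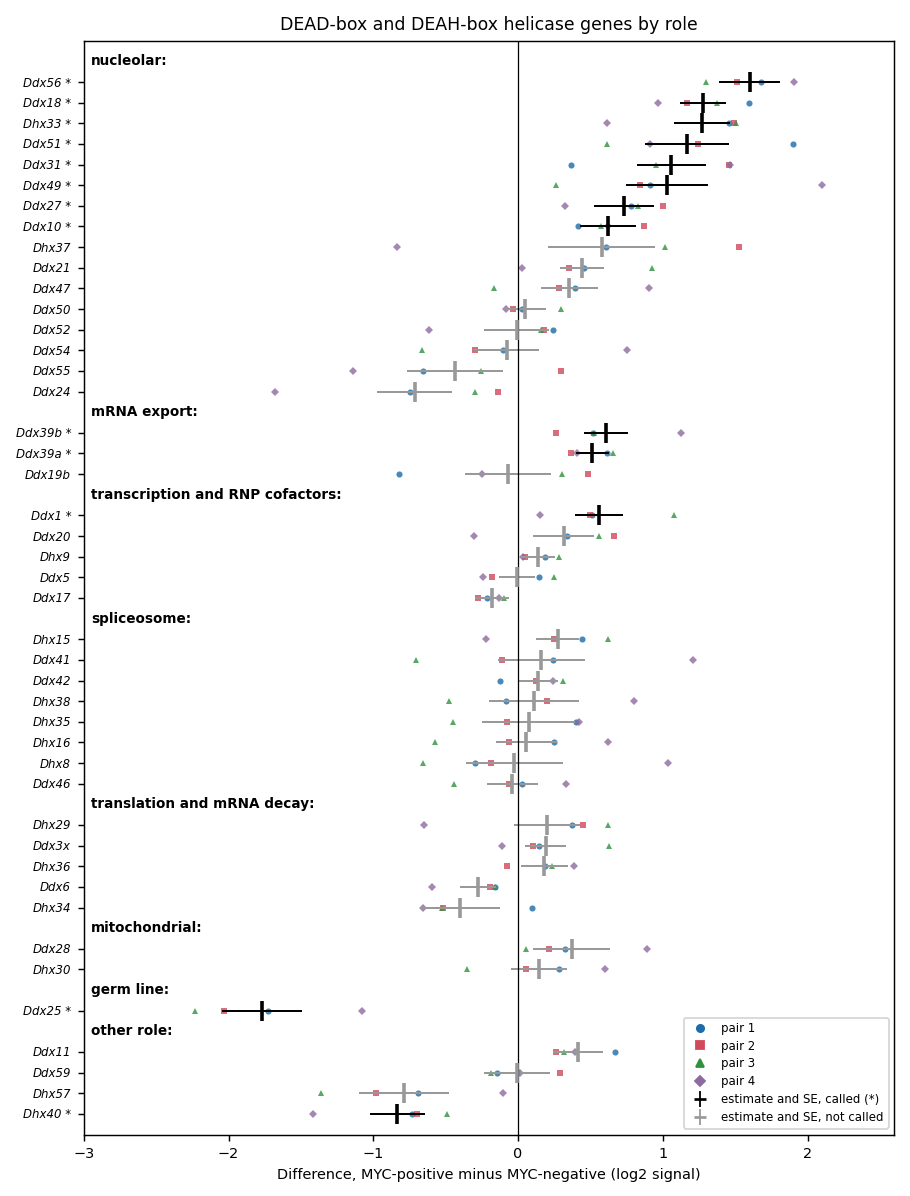
Fitted log2 difference of MYC-positive minus MYC-negative cells (horizontal axis) for the 44 tested helicase genes, grouped by role. Crosses are estimates with bars of 1 SE, in black for the genes called at adjusted p under 0.05, and small coloured symbols are the 4 pairs: 8 of 16 nucleolar genes are called on the right side, and Ddx25 lies farthest left at -1.77.

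The promoters were read for E-boxes, since MYC with its partner MAX binds the letters CACGTG and, more weakly, CACGCG. RefSeq windows of 250 bases before to 50 after the start site, on GRCm38.p6, matched 44 of the 49 genes. Ddx11, Ddx23, Ddx39a, Ddx6 and Dhx38 were not listed. Some genes have several windows, and a gene was counted where any of its windows held the letters. Ddx5 and Ddx42, which are not in the nucleolar group, held CACGTG in only 1 of their windows. CACGTG, which reads the same on both strands, was in 1 of 16 nucleolar promoters (6.25%), in 6 of the 28 others with a listed promoter, tested or not (21.4%), in 11.7% of 9544 tested genes and in 8.09% of all 27025 genes with a promoter. CACGCG on either strand, which shares no full match with CACGTG, was in 6 of 16 nucleolar promoters (37.5%), in 7 of those 28 others (25%), in 19.6% of tested genes and in 10.5% of all. The promoters of 4 called genes are shown, because they are the called-higher gene with a CACGTG, the gene most increased, and the 2 genes called lower, Dhx40 and Ddx25. Each runs 5′ to 3′ in the direction of the gene, all 4 on the minus strand, with CACGTG and CACGCG (or its reverse complement CGCGTG) in capitals.
Dhx33, higher, chr11:71004383-71004682: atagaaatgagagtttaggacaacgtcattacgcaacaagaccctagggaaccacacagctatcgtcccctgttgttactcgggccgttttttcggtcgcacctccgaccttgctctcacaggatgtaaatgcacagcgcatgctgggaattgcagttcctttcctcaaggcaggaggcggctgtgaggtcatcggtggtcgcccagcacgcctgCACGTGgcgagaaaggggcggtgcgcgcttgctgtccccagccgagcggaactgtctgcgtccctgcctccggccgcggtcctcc
Ddx56, higher, chr11:6267680-6267979: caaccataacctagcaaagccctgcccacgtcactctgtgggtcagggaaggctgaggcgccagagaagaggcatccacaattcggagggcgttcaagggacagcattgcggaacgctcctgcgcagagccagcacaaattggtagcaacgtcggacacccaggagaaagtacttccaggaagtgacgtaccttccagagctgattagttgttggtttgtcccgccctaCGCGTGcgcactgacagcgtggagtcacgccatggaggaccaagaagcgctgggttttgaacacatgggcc
Dhx40, lower, chr11:86807611-86807910: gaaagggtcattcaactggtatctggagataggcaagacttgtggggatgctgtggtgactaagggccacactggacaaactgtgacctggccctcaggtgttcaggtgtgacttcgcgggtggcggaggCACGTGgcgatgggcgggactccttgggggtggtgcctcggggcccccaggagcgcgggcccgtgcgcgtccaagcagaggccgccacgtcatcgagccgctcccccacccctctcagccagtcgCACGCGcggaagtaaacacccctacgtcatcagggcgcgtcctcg
Ddx25, lower, chr9:35558421-35558720: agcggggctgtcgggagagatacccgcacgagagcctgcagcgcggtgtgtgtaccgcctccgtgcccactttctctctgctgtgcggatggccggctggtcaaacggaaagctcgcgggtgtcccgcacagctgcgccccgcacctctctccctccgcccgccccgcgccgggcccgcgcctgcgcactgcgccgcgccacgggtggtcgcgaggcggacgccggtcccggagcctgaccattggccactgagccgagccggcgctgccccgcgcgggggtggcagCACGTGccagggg
The letters stood in promoters of genes that went in both directions: among the called genes CACGTG was in 1 of 10 that were higher and in both that were lower, and CACGCG was in 4 of 10 that were higher and in 1 of 2 that were lower. Counted from the start site, it began at position -35 in Dhx33, -120 in Dhx40 and 38 in Ddx25. A match in these letters is a description and not a measured binding site.

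Among the 8 helicases of the large subunit, 5 were called higher (62.5%, where 11.2% of all genes were). The split by subunit was made after the values were seen, so its counts are a description. Ddx56, the relative of yeast Dbp9, had the largest positive difference of the 44 tested helicases. Its signal was 962, 1183, 875 and 946 in the MYC-positive arrays of pairs 1 to 4, against 299.8, 414, 356 and 252 in the MYC-negative arrays. The lowest MYC-positive array, at 875, stood far above the highest MYC-negative array, at 414, and the difference was 1.60 on the log2 scale (SE 0.21, adjusted p = 0.0019). Ddx18, the relative of yeast Has1, had 3659, 4045, 3745 and 3703 in MYC-positive arrays and 1211, 1800.1, 1445 and 1892 in MYC-negative arrays. The MYC-positive arrays lay close together and clear of the others, and the difference was 1.28 on the log2 scale (SE 0.16, adjusted p = 0.0015). Ddx56 and Ddx18 stayed called in the same direction under all 14 alternative settings, with differences of 1.497 to 2.04 and 1.14 to 1.72.

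Ddx51, known in mammalian cells for a part in forming the end of the large-subunit RNA, had signals of 547, 546, 299 and 353 in MYC-positive arrays and 146, 230.0, 195 and 188 in MYC-negative arrays. Pairs 1 and 2 had the higher MYC-positive values, and no MYC-positive array fell into the range of the others. The difference was 1.17 on the log2 scale (SE 0.29, adjusted p = 0.021). Ddx31, the relative of yeast Dbp7, had 583, 1402, 915 and 1471 in MYC-positive arrays and 454, 511, 473 and 532 in MYC-negative arrays. Its MYC-positive value in pair 1 was only a little above the MYC-negative range, while pairs 2 and 4 were far above it, and the difference was 1.06 on the log2 scale (SE 0.24, adjusted p = 0.015). Ddx27, the relative of yeast Drs1, had 964, 1174, 832 and 700.3 in MYC-positive arrays and 562, 586, 469 and 558 in MYC-negative arrays. The ranges did not overlap, and the difference was 0.73 on the log2 scale (SE 0.21, adjusted p = 0.033). MYC-positive was the higher array in all 4 pairs for each of the 3 genes. Without pair 1 the difference of Ddx51 was 0.92 (adjusted p = 0.12) and without pair 2 it was 1.14 (0.11), that of Ddx31 without pair 2 was 0.93 (0.11), and that of Ddx27 without pair 1, 2 or 3 was 0.72, 0.64 and 0.70 (0.14, 0.20 and 0.089). Without the trend of variance on intensity, Ddx31 and Ddx27 had adjusted p of 0.0502 and 0.061.

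The other 3 helicases of the large subunit were not called. Ddx24, the relative of yeast Mak5, had 924, 1257, 1287 and 417 in MYC-positive arrays and 1554, 1381, 1581 and 1334 in MYC-negative arrays on the probe set used. Pair 4 had by far the lowest MYC-positive value, and the difference was -0.71 on the log2 scale (SE 0.26, adjusted p = 0.081). Ddx55, the relative of yeast Spb4, averaged 142 in MYC-positive cells and 192 in MYC-negative cells, a difference of -0.44 on the log2 scale (SE 0.33, adjusted p = 0.38). Ddx54, the relative of yeast Dbp10, averaged 2076 in MYC-positive cells and 2191 in MYC-negative cells, a difference of -0.08 on the log2 scale (SE 0.23, adjusted p = 0.84). Its pair differences ran in both directions, at -0.10, -0.29, -0.66 and 0.75 for pairs 1 to 4.

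Among the 5 helicases of the small subunit, 2 were called higher (40%, where 11.2% of all genes were). Ddx49, the relative of yeast Dbp8, had 1568, 1595, 958 and 1863 in MYC-positive arrays and 833, 888, 799 and 435 in MYC-negative arrays. In pair 3 the groups were close, and in pair 4 the MYC-negative array was the lowest of all, for a difference of 1.03 on the log2 scale (SE 0.28, adjusted p = 0.030). Ddx10, the relative of yeast Dbp4, which frees a snoRNA from the precursor, had 749, 1020.3, 1165 and 785 in MYC-positive arrays and 563, 558, 784 and 509.6 in MYC-negative arrays. The MYC-negative array of pair 3 lay above the MYC-positive array of pair 1, so the groups overlapped, although MYC-positive was the higher array in all 4 pairs. The difference was 0.62 on the log2 scale (SE 0.19, adjusted p = 0.049), just past the threshold. The adjusted p of Ddx10 was 0.13, 0.25 and 0.11 without pair 1, 2 or 3, 0.091 without the replicate block, 0.062 without the filter and 0.072 without the intensity trend. That of Ddx49 was 0.12 and 0.10 without pair 1 or 2, 0.093 without the intensity trend and 0.48 as the mean of its probe sets, where its difference was 0.34.

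Dhx37, the relative of yeast Dhr1, which removes the U3 snoRNA, had 432, 824, 715 and 140.3 in MYC-positive arrays and 283, 287, 355 and 251 in MYC-negative arrays. Pairs 1 to 3 had the MYC-positive array higher and pair 4 had it lower, with pair differences of 0.61, 1.52, 1.01 and -0.84. The difference was 0.58 on the log2 scale (SE 0.37, adjusted p = 0.30), and without pair 4 it was 1.05 (adjusted p = 0.0040). The fits without pair 4 printed for single genes, here and below, were picked with the pair values known. They are descriptions, and without pair 4 a larger share of all genes is called higher. Ddx47, the relative of yeast Rrp3, differed by 0.35 on the log2 scale (SE 0.20, adjusted p = 0.24). Ddx52, the relative of yeast Rok1, differed by -0.01 on the log2 scale (SE 0.22, adjusted p = 0.98), with pair 4 as the 1 pair in which the MYC-positive array was lower.

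The remaining 3 nucleolar helicases are Dhx33, Ddx21 and Ddx50. Dhx33, described in human cells as a factor of ribosomal RNA transcription, had 3259, 3238, 3855 and 2010.2 in MYC-positive arrays and 1186, 1150.2, 1356 and 1315 in MYC-negative arrays. Dhx33 is the 1 nucleolar gene with a CACGTG in its window. Pair 4 had the lowest MYC-positive value, still above every MYC-negative array, and the difference was 1.27 on the log2 scale (SE 0.19, adjusted p = 0.0033). It was called under 13 of 14 settings, the exception being the mean over probe sets, at 0.86 (adjusted p = 0.084). Ddx21, which acts in ribosomal RNA transcription and processing, had 11217, 12210.3, 17249 and 14338 in MYC-positive arrays and 8172, 9564, 9087 and 14051 in MYC-negative arrays. The MYC-negative array of pair 4 lay within the MYC-positive range, and the difference was 0.44 on the log2 scale (SE 0.15, adjusted p = 0.066). Without pair 4 it was 0.58 (adjusted p = 0.0069), and it also passed the threshold with quantile normalization (0.037), median centring (0.0065) and the mean over probe sets (0.020). Ddx50, the close paralogue of Ddx21, averaged 3215 in MYC-positive cells and 3103 in MYC-negative cells, a difference of 0.05 on the log2 scale (SE 0.14, adjusted p = 0.83).

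**Figure D2:**
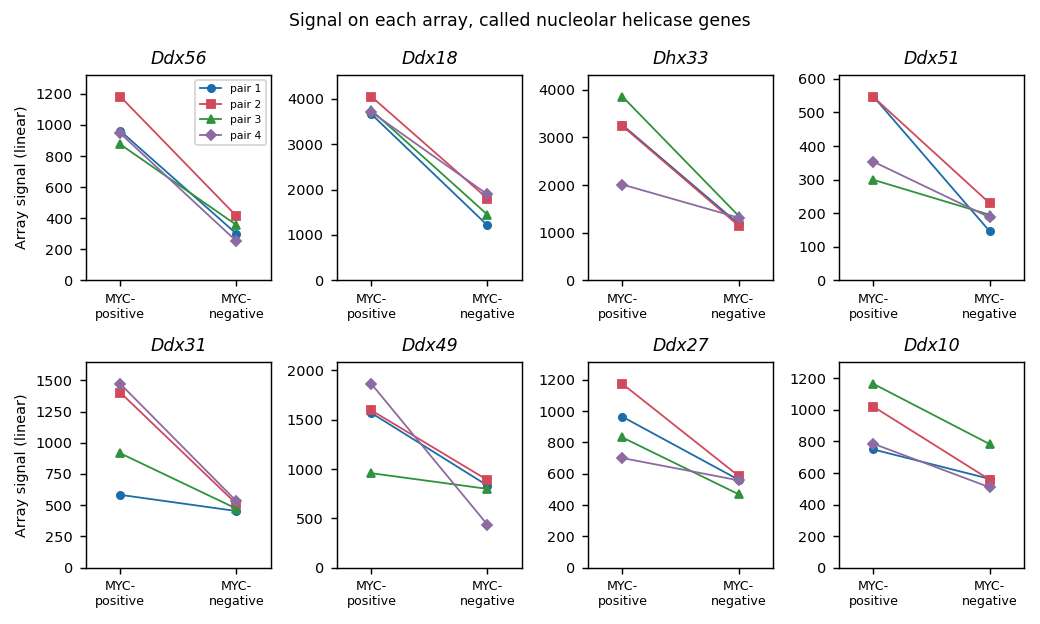
Array signal (linear axis from 0) of the 8 called nucleolar helicases in MYC-positive and MYC-negative samples, with a line and a symbol for each of the 4 pairs. In every panel all 4 lines fall towards the MYC-negative sample, and in the panel of Ddx10 the groups overlap.

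Several probe sets for a gene let its difference be read more than once on the same arrays. In a fit of each probe set on its own, chosen after seeing the data, 11 of 34 kept nucleolar probe sets were higher and 0 were lower, where 9.03% and 12.0% of 22024 probe sets were. Ddx21, not called on the probe set used, was called through its other one. This second, dimmer probe set (1448271_a_at) had 2540.1, 2888, 2075 and 1633 in MYC-positive arrays and 771, 1161, 671 and 739 in MYC-negative arrays. There the groups were well apart, at 1.45 on the log2 scale (SE 0.18, adjusted p = 0.0019), while the brighter one (1448270_at) missed the threshold. The second probe set of Ddx18 (1416071_at) differed by 1.48 on the log2 scale (SE 0.17, adjusted p = 0.0014), and that of Ddx31 (1434182_at) by 1.04 on the log2 scale (SE 0.24, adjusted p = 0.018). For Ddx10 the second probe set (1428563_at) was called, at 0.89 on the log2 scale (SE 0.23, adjusted p = 0.027), and the one of highest signal had an adjusted p of 0.052 in this fit. Counting a gene as higher with any kept probe set higher and none lower gave 9 of 16, where 12.1% of all genes met that rule.

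Of 13 nucleolar helicases with several kept probe sets, 5 had probe sets of opposite sign. Ddx24 differed by -0.71 on its brightest probe set (1441631_at) and by 0.68 on the other (1415713_a_at), with neither called. The difference of Ddx49 was 1.03 on the probe set used, 1.03 on 1435681_s_at and -1.04 on 1457947_at. For Ddx50 the values were 0.05 on the bright probe set and -0.85 and -0.88 on 2 dim ones, with adjusted p of 0.12 and 0.084. Ddx47 had 0.35 against -0.38 and -0.41, and Ddx52 had -0.01 against 0.11. In Ddx47, Ddx49 and Ddx50 the brightest probe set gave the positive value and the lower reading came from dimmer ones. Which transcripts the dim probe sets read was not tested.

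**Figure D3:**
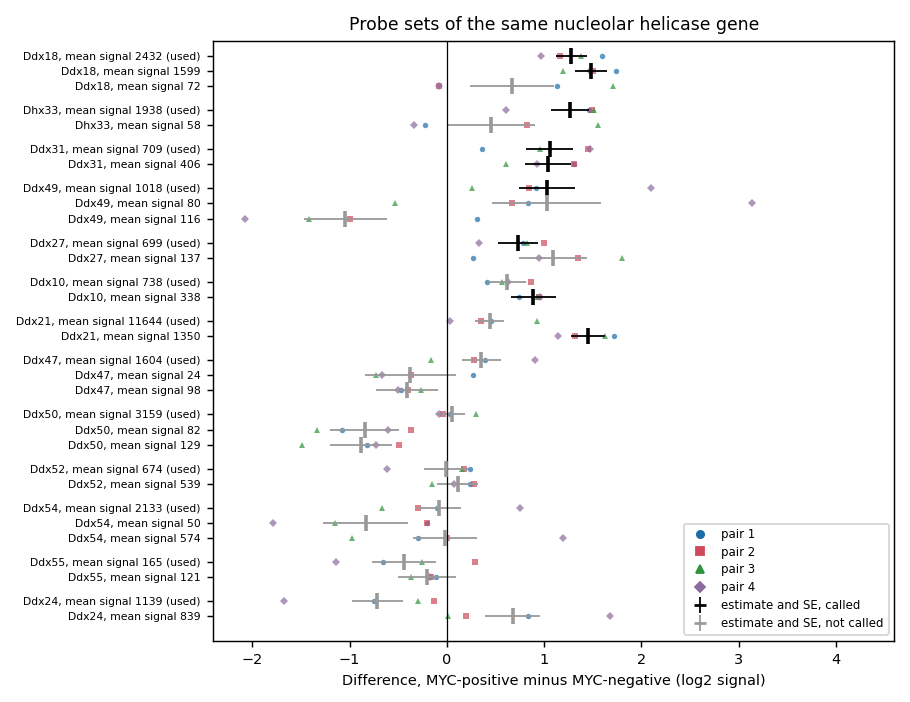
Log2 difference of MYC-positive minus MYC-negative cells (horizontal axis) for each kept probe set of the 13 nucleolar helicases that have several, labelled with its mean signal. Crosses are estimates with bars of 1 SE, black where called, and coloured symbols are the 4 pairs; the second probe set of Ddx21 is called at 1.45, and no probe set is called lower.

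The 28 tested helicases with other roles had 3 genes called higher and 2 lower (10.7% and 7.14%, against 11.2% and 11.5% of all genes), and a median difference of 0.12. With arrays centred on their medians 11 were higher (39.3%, where 27.3% of all genes were), without pair 4 it was 6 (21.4%, against 14.8%), and 0 were higher without pair 1, without pair 2, without the intensity trend or as the mean over probe sets, where 3.43%, 3.87%, 6.26% and 7.25% of all genes were. The number lower was 5 with quantile normalization (17.9%, where 11.3% of all genes were). It was 1 with median centring, without the intensity trend, without pair 1 or without pair 2, with no share of all genes set beside it here. The paralogous mRNA export helicases Ddx39b and Ddx39a were among the 3. Ddx39b, of the TREX export complex, had 10737, 9893, 8189.9 and 11719 in MYC-positive arrays and 7510.4, 8253, 5687 and 5383 in MYC-negative arrays. MYC-positive was the higher array in every pair, the groups overlapped, and the difference was 0.61 on the log2 scale (SE 0.15, adjusted p = 0.023). Ddx39a had 11062, 11329, 13594 and 15538 in MYC-positive arrays and 7209, 8787, 8615 and 11712 in MYC-negative arrays. It again was higher in every pair with overlapping groups, and differed by 0.51 on the log2 scale (SE 0.11, adjusted p = 0.014). Ddx19b, which releases mRNA at the nuclear pore, differed by -0.07 on the log2 scale (SE 0.30, adjusted p = 0.90). Both calls were lost without pair 1 (adjusted p of 0.11 for Ddx39b and 0.12 for Ddx39a), without pair 2 (0.052 and 0.056), with the mean over probe sets (0.092 and 0.072) and without the intensity trend (0.11 and 0.10). That of Ddx39a was also lost without the replicate block (0.079). With each probe set on its own, Ddx39a was called at 0.51, 0.69, 0.55 and 0.53, but not on a dim one (1438287_x_at), at 0.03. Ddx39b was called at 0.61 and 0.46, but not on a dimmer one (1447779_x_at), at 0.49.

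Among the 5 cofactors of transcription and of RNA-protein assembly, Ddx1 was called higher. Ddx1, a member of the human tRNA ligase complex, had 4977, 5383, 6077 and 5115 in MYC-positive arrays and 3490.2, 3805, 2876 and 4609.8 in MYC-negative arrays. The groups did not overlap, and the difference was 0.56 on the log2 scale (SE 0.17, adjusted p = 0.041). It was lost without pair 1, 2 or 3 (adjusted p of 0.16, 0.14 and 0.12), without the filter (0.061), with the mean over probe sets (0.16) and without the intensity trend (0.14). Ddx20, the Gemin3 subunit of the SMN complex that assembles spliceosomal particles, had 1111, 1226, 1303 and 741 in MYC-positive arrays and 878, 774, 885 and 917 in MYC-negative arrays. Pair 4 ran against the other 3, and the difference was 0.31 on the log2 scale (SE 0.21, adjusted p = 0.33), or 0.52 without pair 4 (adjusted p = 0.033). Ddx17, a transcriptional cofactor, had 7412, 7769, 7572 and 7592 in MYC-positive arrays and 8615, 9415, 8080.1 and 8318 in MYC-negative arrays, and its difference of -0.18 on the log2 scale (SE 0.11, adjusted p = 0.30) was not called although every MYC-positive array lay below. Its paralogue Ddx5 differed by -0.01 on the log2 scale (SE 0.12, adjusted p = 0.97), with other probe sets from -1.16 to 0.03, and Dhx9, RNA helicase A, by 0.14 on the log2 scale (SE 0.12, adjusted p = 0.43).

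Of the 8 tested spliceosomal helicases 0 were called in either direction by limma, and 0 had an unadjusted p under 0.05. Their differences ran from -0.04 for Ddx46, which acts when the branch site is recognised, to 0.27 for Dhx15, which takes the spent spliceosome apart, with a median of 0.09. The pair medians of the 8 ran in both directions, at 0.13, -0.07, -0.46 and 0.52 in pairs 1 to 4. Ddx46 had other probe sets from -0.44 to 0.24. Without pair 4, Dhx15 differed by 0.44 and was called (adjusted p = 0.023).

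The 5 helicases of translation and mRNA decay had none called, with differences from -0.40 for Dhx34, a factor of nonsense-mediated decay, to 0.20 for Dhx29, which helps the small subunit scan. Ddx6, a component of P-bodies that represses translation and promotes decapping, had 7886, 8069, 9922 and 7422 in MYC-positive arrays and 8812, 9243, 11078 and 11207 in MYC-negative arrays. MYC-positive was the lower array in all 4 pairs with overlapping groups, and the difference was -0.28 on the log2 scale (SE 0.13, adjusted p = 0.15). A dimmer Ddx6 probe set (1439122_at) was called lower, at -0.81 on the log2 scale (SE 0.16, adjusted p = 0.011), and the dimmest (1447789_x_at) had 0.77. Dhx34 had 404, 214, 165 and 100.4 in MYC-positive arrays and 378, 307, 237 and 159 in MYC-negative arrays, with adjusted p = 0.34. Dhx29 without pair 4, whose MYC-positive array was low, differed by 0.48 (adjusted p = 0.027).

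Ddx28 and Dhx30, both known for assembly of the mitochondrial ribosome, were not called. Ddx28 had 356, 395, 242 and 313 in MYC-positive arrays and 284, 341, 233 and 169 in MYC-negative arrays, higher in every pair with overlapping groups, and differed by 0.37 on the log2 scale (SE 0.26, adjusted p = 0.36). Dhx30 differed by 0.15 on the log2 scale (SE 0.19, adjusted p = 0.63) on its brightest probe set and by -1.10 on the log2 scale (SE 0.32, adjusted p = 0.042) on a dim one (1453251_at), which was called lower.

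Among the 44 tested helicases the largest difference in either direction was that of Ddx25, known in the mouse as a gonadotropin-regulated helicase of the testis. Its signal was 184, 137, 130.4 and 254 in MYC-positive arrays, against 612, 558, 613 and 536 in MYC-negative arrays. The MYC-negative arrays were nearly alike, every MYC-positive array lay far below them, and the difference was -1.77 on the log2 scale (SE 0.28, adjusted p = 0.0037), a fold of 0.29. The printed window of Ddx25, like that of Dhx40, holds a CACGTG. Ddx25 stayed called lower under all 14 settings, between -1.997 and -1.33. The germ line helicases Ddx4, the mouse relative of Vasa, and Ddx43 were under the filter. Ddx4 had 0.85 to 26.2 in MYC-positive arrays and 12.9 to 53.2 in MYC-negative arrays. Ddx43 had 0.77 to 12.9 in MYC-positive arrays and 2.23 to 30.3 in MYC-negative arrays.

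Dhx40 was the other helicase called lower. Its signal was 1536, 1441, 1258 and 1031 in MYC-positive arrays, against 2557, 2339.5, 1768 and 2750.4 in MYC-negative arrays, with no overlap. The difference was -0.84 on the log2 scale (SE 0.19, adjusted p = 0.015), and it was not called with arrays centred on their medians (-0.40, adjusted p = 0.17), without the intensity trend (0.061) or without pair 1 or 2 (0.085 and 0.074). Dhx57 had 222, 160.3, 108 and 122 in MYC-positive arrays and 359, 317, 279 and 131 in MYC-negative arrays. MYC-positive was the lower array in every pair, by little in pair 4, and the difference was -0.79 on the log2 scale (SE 0.31, adjusted p = 0.10), or -1.01 without pair 4 (adjusted p = 0.015). Ddx11, which is named with the family but is a DNA helicase of sister chromatid cohesion, had 1544, 1324, 1248 and 1138 in MYC-positive arrays and 969, 1102, 1002 and 865 in MYC-negative arrays. The groups did not overlap and the difference was 0.41 on the log2 scale (SE 0.17, adjusted p = 0.12). Ddx59 differed by -0.01 on the log2 scale (SE 0.23, adjusted p = 0.98).

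A further 3 genes were under the filter, which stood at a mean signal of 18.7. The interferon-induced Ddx60 had 1.80 to 28.2 in MYC-positive arrays and 14.5 to 27.3 in MYC-negative arrays. Dhx32 had 4.79 to 49.9 in MYC-positive arrays and 8.24 to 49.6 in MYC-negative arrays. Ddx23, a spliceosomal helicase that acts in every cell, also had a dim probe set, at 4.95 to 10.1 in MYC-positive arrays and 14.8 to 26.4 in MYC-negative arrays, so a low signal here cannot be told apart from a poor probe set.

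The median of the nucleolar helicases stood above that of the others in each pair. The nucleolar medians were 0.43, 0.86, 0.59 and 0.62 in pairs 1 to 4, and those of the other helicases were 0.16, 0.05, -0.02 and 0.09. The gap between the medians was 0.27, 0.81, 0.61 and 0.53 in the 4 pairs and 0.47 in the fit. All 4 pairs had the same sign, for which an exact two-sided sign-flip test cannot give a p under 0.125. Both gene lists were written with results of these arrays known, so the gap is a description. The macrophage and myeloid sum was higher in MYC-positive cells by 2.88, 1.75, 0.77 and 2.46 in pairs 1 to 4 on the log2 scale. Over the 14 tested macrophage and myeloid markers, the median difference was larger than that of the sum, at 4.95, 3.74, 2.66 and 3.83. The part of these cells in the single gene values was not tested.

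**Figure D4:**
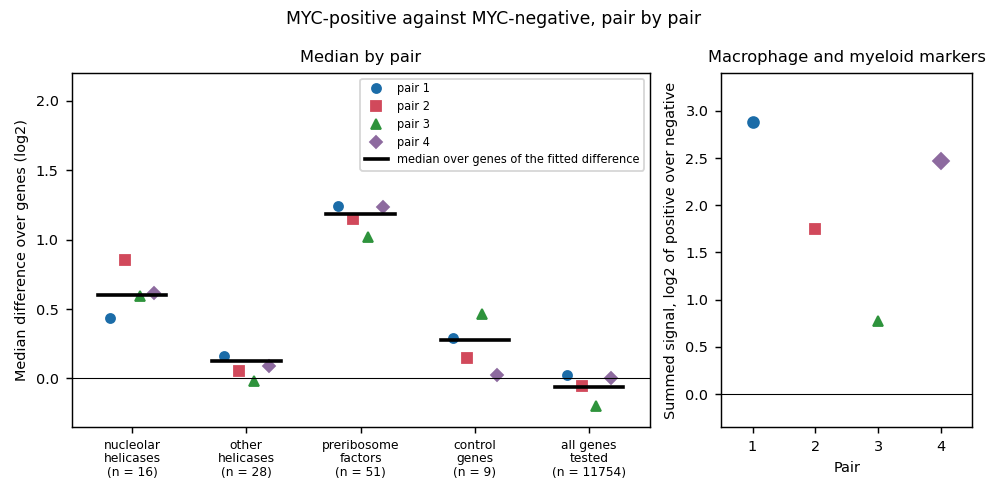
Median log2 difference over genes in each of the 4 pairs (left; bars are medians of the fitted differences) and the log2 ratio of the summed macrophage and myeloid marker signal (right). The nucleolar medians lie at 0.43 to 0.86, above those of the other helicases at -0.02 to 0.16 in every pair, while the myeloid ratio runs between 0.77 and 2.88.

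Preribosome factors, helicase partners, helicases of other names and control genes were set beside the helicases. Of 51 preribosome factors that are not Ddx or Dhx helicases, 46 were called higher and 0 lower (90.2%), with a median difference of 1.19 against 0.60 for the nucleolar helicases. The largest were Gnl3, nucleostemin, at 2.18 on the log2 scale (SE 0.17, adjusted p = 0.00041), Rcl1 at 1.97 on the log2 scale (SE 0.21, adjusted p = 0.00088), and Nob1, the nuclease that matures the small subunit RNA, at 1.79 on the log2 scale (SE 0.33, adjusted p = 0.0071). Of 32 known protein partners and activators of helicases, 7 were called higher and 1 lower, with a median of 0.29. That is 21.9% and 3.12%, where 11.2% and 11.5% of all genes were. The largest were Gemin5, which sits with Ddx20 in the SMN complex, at 1.73 on the log2 scale (SE 0.25, adjusted p = 0.0026), the G-patch protein Gpatch4 at 1.61 on the log2 scale (SE 0.24, adjusted p = 0.0029), and Aatf, a small-subunit factor, at 1.54 on the log2 scale (SE 0.27, adjusted p = 0.0051). Rbm5, a splicing factor, was lower, at -0.92 on the log2 scale (SE 0.23, adjusted p = 0.022). Of 15 tested helicases that carry other names, 2 were called higher and 1 lower (13.3% and 6.67%, against 11.2% and 11.5%), with a median of 0.13. These were Supv3l1, the mitochondrial helicase of RNA decay, at 1.25 on the log2 scale (SE 0.23, adjusted p = 0.0072), the translation factor Eif4a1 at 0.46 on the log2 scale (SE 0.12, adjusted p = 0.028), and Zgrf1 at -1.11 on the log2 scale (SE 0.35, adjusted p = 0.049). Of 9 control genes, Gusb was called higher, at 0.79 on the log2 scale (SE 0.19, adjusted p = 0.019), and their median was 0.28. All 9 differences were positive, where 45.9% of all genes had a positive one. In 5 of the 9 MYC-positive was the higher array in all 4 pairs, where 19.3% of all genes were. The control median lay above that of the other helicases, at 0.12, and that of all genes, at -0.06.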

How the data were processed

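Splenic germinal centre B cells were measured on 8 Affymetrix arrays, 4 MYC-positive and 4 MYC-negative. The deposited values are intensities on a linear scale, made with MAS5 per the submitters' processing notes; the scaling target is not given in the sources used here. Of 45056 probe sets, 34945 carry 1 gene symbol, 932 several and 9160 none in the platform annotation, and 0 symbols changed against RefSeq. Values were floored at 1 before log2. Probe sets with a mean above the 40th percentile were kept (27022), 19 control probe sets were left out, and each gene took the probe set of highest mean, giving 11754 genes. limma 3.58.1 (R 4.3.3) was fitted with the pair as a block and an intensity trend in the variance, with 3 residual degrees of freedom and Benjamini-Hochberg adjustment over all genes. Pairs come from the sample descriptions, not from the replicate numbers in the titles. Deviations of paired arrays correlated at 0.26, 0.17, 0.088 and 0.12. With 4 arrays per group the number of arrays limits the precision. The limma p-values set each difference against the spread of its 4 pair differences, with variance information shared over all genes.

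The helicases, their role groups and all gene lists were chosen with earlier results of these data known. Named are every nucleolar helicase, the called others, the germ line, mitochondrial and interferon-induced ones, those with probe sets of opposite sign and those under the filter, and from each other list the 3 largest called genes in each direction. The split of nucleolar helicases by subunit was made after the values were seen. Alternatives were other scalings, floors, filters, probe set rules, no replicate block, no intensity trend and each pair left out. The fit was tested on simulated data. Promoter sequences are RefSeq's, on GRCm38.p6; a genome and protein sequences were not used here.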

Additional observations from a re-analysis of the deposited data

Results flagged for a closer look

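In 6 of 88 groups of 4 arrays, 1 array of a helicase stood apart from the other three by Dixon's test at the 95% level; chance alone gives about 1 in 20 groups. In all 6 the array was the low one, and in 5 of the 6 it belonged to pair 4. The groups come from the same arrays and are not independent. The same counts over all genes are not given here, so whether this is particular to helicases was not tested. In MYC-positive cells, Dhx29 read 805 in pair 4 against 1925 to 2042 in the other pairs, and Ddx52 read 415 against 755 to 836. In MYC-negative cells, Ddx49 read 435 in pair 4 against 799 to 888, Ddx47 read 1093 against 1516 to 1580, and Dhx36 read 1227 against 1792 to 1846. Ddx19b read 238 in the MYC-negative array of pair 2 against 294 to 305 in the other pairs. Without pair 4, the difference of Dhx29 was 0.48 (limma adjusted p = 0.027), that of Ddx49 was 0.67 (adjusted p = 0.012) and that of Ddx52 was 0.19 (adjusted p = 0.47).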

How the results depend on the processing

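Ddx56, Ddx18 and Ddx25 were called in the same direction under all 14 alternatives. Under the other scalings, floors, filters and probe set rules and without the replicate block, the nucleolar count was 7 to 11 of 16. Under the same settings 0 nucleolar genes were called lower. The share of all genes called higher also moved, at 7.25% as the mean over probe sets and 27.3% with median centring. Without the replicate block, 9 helicases were higher and 2 lower, and helicases of other names had 1 higher. The shares of all genes called under that setting are not given here, so these counts cannot be set against them. Median centring raised the median of all genes to 0.38 from -0.06 and gave 3204 genes higher and 546 lower, against 1319 and 1352; it gave 22 helicases higher and 1 lower (11 and 1 with other roles), 6 helicases of other names, 18 partners and medians of 1.04 for the nucleolar and 0.56 for the other helicases, with the gap between them at 0.47 as before. Quantile normalization moved the median of all genes to 0.09, with 12 helicases higher and 5 lower, all 5 with other roles (27.3% and 11.4% of 44, where 15.2% and 11.3% of all genes were), and a nucleolar median of 0.82. The mean over probe sets gave 7 helicases higher, 0 of them with other roles, where 7.25% of all genes were higher. Without the intensity trend 4 were higher, all nucleolar, and 1 lower, with 0 higher and 1 lower among the other roles and 1 helicase of other names, where 6.26% of all genes were higher.

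With each pair left out in turn, 3 to 16 helicases were higher and 1 to 3 lower. The nucleolar count was 3 to 10, at 4 without pair 1 (3.43% of all genes then called higher), 3 without pair 2 (3.87%), 6 without pair 3 (10.1%) and 10 without pair 4 (14.8%). The other roles had 0 to 6 higher and 1 to 3 lower, helicases of other names 0 to 3, partners 4 to 9 and preribosome factors 28 to 46 of 51. These counts higher are to be read beside the shares of all genes just given. The shares called lower in these fits are not given here. The median of the other helicases was -0.0082 to 0.13, lowest without pair 4, and that of the nucleolar ones 0.50 to 0.65. Counting a gene by any kept probe set, chosen after seeing the data, gave 9 nucleolar helicases higher, where 12.1% of all genes were.

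The sign changed mostly in genes near 0 that were not called. With quantile normalization, Ddx19b had 0.24, Ddx50 -0.028, Ddx52 0.14, Ddx59 0.23, Dhx8 0.32 and Dhx9 -0.042. With median centring, Ddx17 had 0.26, Ddx19b 0.37, Ddx46 0.40, Ddx5 0.43, Ddx52 0.43, Ddx54 0.36, Ddx55 0.0020, Ddx59 0.43, Ddx6 0.16, Dhx34 0.039 and Dhx8 0.41. As the mean over probe sets, Ddx47 had -0.14, Ddx50 -0.56, Ddx52 0.051 and Dhx30 -0.038. On single probe sets other than the one used, the values of opposite sign were Ddx24 0.68, Ddx46 0.24 and 0.11, Ddx47 -0.38 and -0.41, Ddx49 -1.04, Ddx5 0.032, Ddx50 -0.85 and -0.88, Ddx52 0.11, Ddx6 0.77 and Dhx30 -1.10. With each pair left out in turn, the ranges that crossed 0 were Ddx19b -0.25 to 0.18, Ddx41 -0.19 to 0.45, Ddx46 -0.16 to 0.10, Ddx5 -0.094 to 0.070, Ddx50 -0.030 to 0.10, Ddx52 -0.091 to 0.19, Ddx54 -0.35 to 0.12, Ddx59 -0.11 to 0.051, Dhx16 -0.13 to 0.27, Dhx30 -0.0053 to 0.31, Dhx35 -0.043 to 0.25, Dhx38 -0.12 to 0.30 and Dhx8 -0.38 to 0.18. Of these values, the Dhx30 probe set at -1.10 passed the threshold, and the cause of these changes was not tested.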

Other observations

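The Y-linked Kdm5d was called lower in MYC-positive cells, at 752, 499, 1109.5 and 805 in pairs 1 to 4, against 1186, 649, 1683 and 1757 in MYC-negative cells. The difference was -0.69 on the log2 scale (SE 0.20, limma adjusted p = 0.034), with the same sign in all 4 pairs. Uty differed by -0.92 (adjusted p = 0.16). Eif2s3y read 3096 to 5228 in MYC-positive arrays and 3799 to 7722 in MYC-negative arrays, with pair 2 lowest in both groups. Xist, high in both arrays of pair 2, read 15.1 to 50.7 in the MYC-positive and 5.17 to 40.1 in the MYC-negative arrays of the other pairs.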
